A study of Mus musculus with 6 samples.

Results

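The genes described here encode actin, the proteins that build and turn over actin filaments, and the adaptors and kinases that tie those filaments to the membrane in podosomes and focal adhesions. They form a list of 52 genes, chosen by function, of which 47 were measured by a probe set that the platform annotation pairs with that gene alone, out of 18193 genes measured in the same way. Ptk2, Bin2, Arpc1b, Arpc3 and Actr2 had no such probe set and are not analysed here. A gene with several probe sets was represented by the brightest one over the 6 arrays. The cells were bone marrow macrophages from C57BL/6 mice that were wild type (WT) or knockin mutants (KI); the sample labels do not say what was knocked in, and the series title names the IVVY motif of RANK, the receptor for RANKL. Both genotypes received 44 ng/ml of M-CSF, which keeps macrophages alive, together with 100 ng/ml of RANKL, which drives osteoclast formation, for 24 hours. RNA of 3 samples per genotype was hybridised to Affymetrix mouse arrays, 1 array per sample. The sources used here give neither the age and sex of the mice nor whether cells of several mice were pooled. Nothing in the labels says that the samples came from separate mice, so the p-values measure the spread between these arrays, which may be technical.

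Macrophages and osteoclasts hold to their substrate mainly by podosomes, columns of branched actin surrounded by a ring of integrins and adaptors. In a podosome the Arp2/3 complex nucleates branches on existing filaments when WASP and cortactin activate it, while talin, vinculin, paxillin and kindlin couple the ring to integrins. In osteoclasts podosomes gather into a belt, and on bone into the sealing zone that encloses the resorbed area. Outside podosomes the same proteins drive migration, phagocytosis and the cell cortex, where myosins pull on filaments and ezrin, radixin and moesin link them to the membrane.

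Median intensities of the 6 arrays lay between 83.0 and 84.8. Of the arrays, WT 1 lay farthest from the others of its group, with a median absolute log2 distance of 0.14 over all genes and 0.14 over the actin genes, against 0.075 to 0.12 and 0.038 to 0.099 for the other 5. Macrophage markers were present in both groups: the summed intensity of 8 such genes was 90761 to 111245 on WT arrays and 135581 to 141077 on KI arrays, and 7 of 8 were higher in KI. The summed intensity of 8 osteoclast genes was 63884 to 73095 in WT and 29318 to 32591 in KI, and 6 of 8 were lower. Of 7 neutrophil genes 1 was higher, and their sum was 15715 to 19724 in WT and 21993 to 43495 in KI. Among 6 genes of megakaryocytes and platelets 2 were higher (Pf4 and Treml1) and 4 did not pass (Ppbp, Itga2b, Gp9 and Gp1bb). Their sums were 2717 to 3658 in WT and 7885 to 9530 in KI. Itga2b, Gp9 and Gp1bb lay between 102 and 220 on all 6 arrays. No marker of B cells (4 genes, sums of 244 to 391), of T and NK cells (4 genes, 199 to 222) or of dendritic cells (4 genes, 281 to 315) passed by limma. Intensities at this level do not show whether such cells were present. The sum of 8 stromal genes ranged from 3377 to 13258 without separating the groups. The part of these other cells in the differences below was not tested, and in bulk RNA fewer cells of a type and less RNA per cell cannot be told apart.

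In KI cells 12 of the 47 genes were higher and 7 lower than in WT, and 28 did not pass the test (limma, Benjamini-Hochberg adjusted p under 0.05 over all 18193 genes). The background was 11.9% of all genes called higher and 14.9% called lower, 26.8% together. Bright genes were called more often than dim ones. Of the 47 genes 46 lay above the median level of all genes, where 45.7% of genes were called, and 40.4% of the 47 were called. Within the top decile by level, which held 30 of the 47, 52.2% of all genes were called. The median log2 difference, KI minus WT, was 0.08 for the list and -0.0013 for all genes. Cttn and Myo1e had the largest falls, and Evl, Zyx, Ptk2b and Coro1a the largest rises. With Ezr, these 7 were the called genes that differed at least 1.5-fold, a criterion that 13.1% of all genes met. The groups did not overlap for 26 of the 47 genes (18 higher and 8 lower in KI), where 45.2% of all genes had groups apart.

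**Figure D1:**
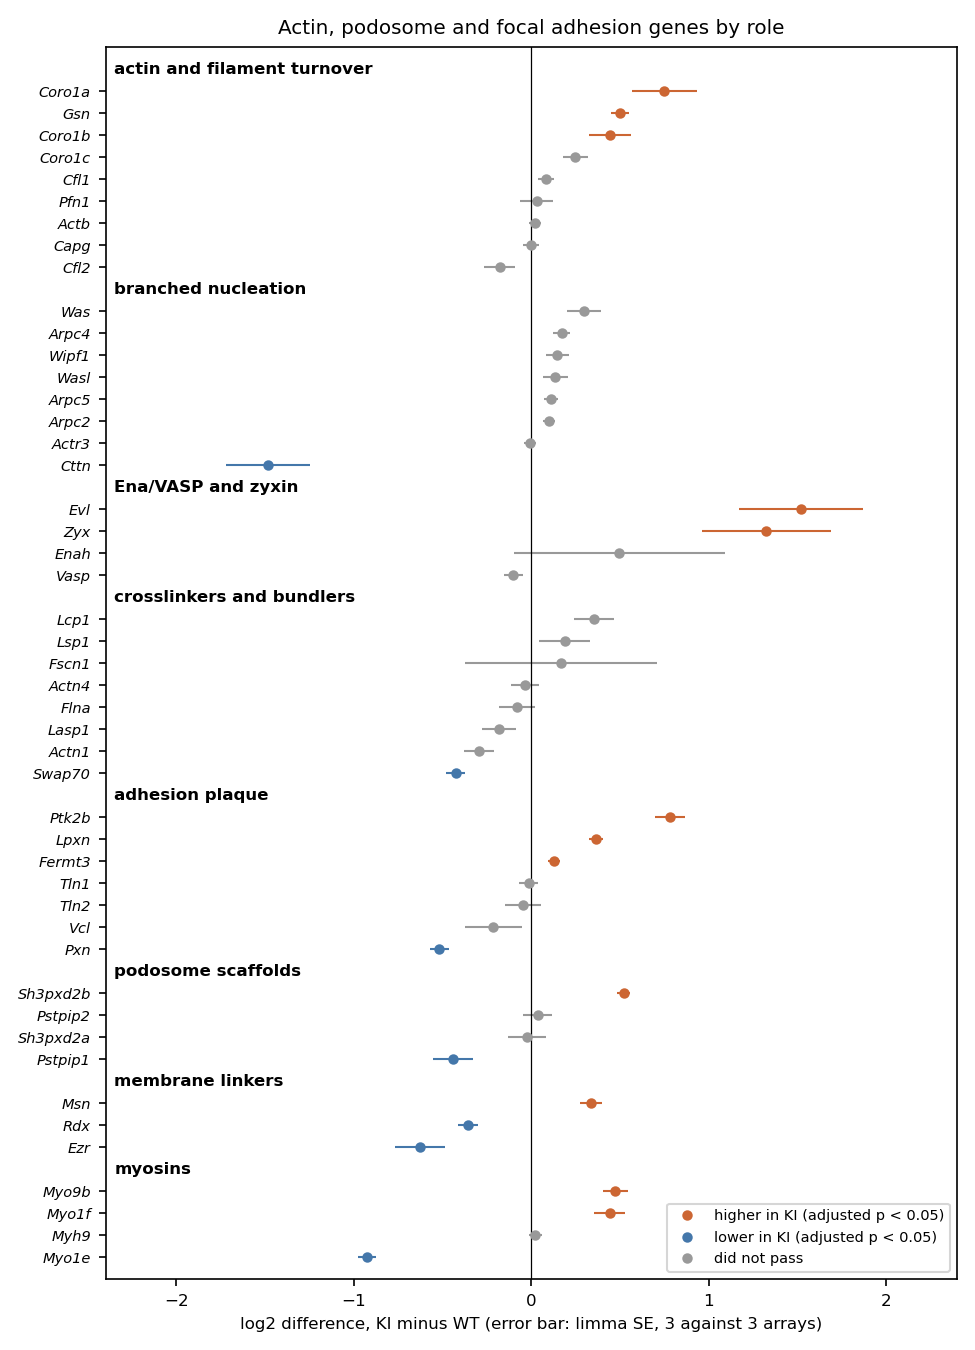
Log2 difference between KI and WT for the 47 measured genes, grouped by role, with the limma standard error as the error bar (3 arrays per group). Orange points are the 12 genes called higher, blue points the 7 called lower and grey points the 28 that did not pass; differences run from -1.49 for Cttn to 1.52 for Evl, while actin, talin and the Arp2/3 complex subunits lie close to 0.

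The RefSeq promoter table (build GRCm38.p6) held 49 start sites for 41 of the 52 genes, of which 38 were measured. Cttn, Pxn, Ptk2b and Actb were not among them. A CArG box, an AP-1 site and a PU.1 core were searched on both strands in the 250 bases before each start, with no overlap between matches of different motifs in the sequences shown. The CArG box, which the factor SRF binds, was in 3 of the 49 windows (6.12%) and in 1.47% of all 32851 promoters of the table; the AP-1 site TGANTCA was in 6.12% and 6.75%, and GAGGAA, the core of the PU.1 site, in 16.3% and 23.3%. The CArG boxes were those of Vcl, Myo1e and Arpc4, of which Myo1e was called lower and the other two were not called. The windows below belong to the genes with the largest changes that the table holds (Myo1e, Evl, Zyx) and to the linkers Ezr and Msn, which moved in opposite directions. That of Vcl, a gene not called, is shown for its CArG box. Every window shown holds a motif, whereas most of the 49 windows hold none of the 3. Neither the 2 windows of Coro1a nor that of the second start of Evl holds one. Capitals mark the motif: a CArG box in Myo1e and Vcl, an AP-1 site in Zyx and Ezr, and the PU.1 core in Evl (reverse strand) and Msn (forward strand). A match is a run of letters, and binding was not measured. The windows are chr9:70207100-70207349 for Myo1e, chr14:20929148-20929397 for Vcl, chr6:42349578-42349827 for Zyx, chr17:6782781-6783030 (minus strand) for Ezr, chr12:108554470-108554719 for the first of 2 starts of Evl and chrX:96095795-96096044 for Msn, all on the plus strand but Ezr, and each ends at the base before the start.
Myo1e: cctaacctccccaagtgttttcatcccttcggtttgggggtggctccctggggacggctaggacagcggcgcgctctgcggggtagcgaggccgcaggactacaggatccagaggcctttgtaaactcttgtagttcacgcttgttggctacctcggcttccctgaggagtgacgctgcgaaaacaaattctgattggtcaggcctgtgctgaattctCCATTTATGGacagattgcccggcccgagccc
Vcl: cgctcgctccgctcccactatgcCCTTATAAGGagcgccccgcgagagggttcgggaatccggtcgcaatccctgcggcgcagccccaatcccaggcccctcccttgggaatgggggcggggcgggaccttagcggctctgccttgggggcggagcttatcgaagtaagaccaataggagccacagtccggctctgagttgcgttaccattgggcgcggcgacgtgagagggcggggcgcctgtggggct
Zyx: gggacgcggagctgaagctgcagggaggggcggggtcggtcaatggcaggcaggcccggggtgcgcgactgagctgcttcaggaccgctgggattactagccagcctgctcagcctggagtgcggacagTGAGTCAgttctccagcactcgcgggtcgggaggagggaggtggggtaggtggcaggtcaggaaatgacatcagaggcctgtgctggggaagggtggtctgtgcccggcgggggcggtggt
Ezr: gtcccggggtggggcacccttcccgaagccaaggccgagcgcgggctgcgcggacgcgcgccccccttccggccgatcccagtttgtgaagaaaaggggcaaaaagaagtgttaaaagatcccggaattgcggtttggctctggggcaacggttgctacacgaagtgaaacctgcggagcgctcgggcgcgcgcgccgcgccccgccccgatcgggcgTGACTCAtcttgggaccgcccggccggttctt
Evl: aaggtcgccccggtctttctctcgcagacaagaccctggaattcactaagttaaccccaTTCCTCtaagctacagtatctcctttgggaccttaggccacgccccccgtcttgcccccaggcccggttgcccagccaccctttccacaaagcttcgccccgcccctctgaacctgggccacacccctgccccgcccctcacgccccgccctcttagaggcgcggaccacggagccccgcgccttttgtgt
Msn: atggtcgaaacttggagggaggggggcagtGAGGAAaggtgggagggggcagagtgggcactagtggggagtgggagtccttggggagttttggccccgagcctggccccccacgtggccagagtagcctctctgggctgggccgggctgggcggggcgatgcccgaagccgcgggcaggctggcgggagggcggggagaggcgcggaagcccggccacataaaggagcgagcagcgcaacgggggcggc

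Among the 7 measured genes of the adhesion plaque, Pxn fell, Ptk2b, Lpxn and Fermt3 rose, and Vcl, Tln1 and Tln2 did not pass. Pxn encodes paxillin, the scaffold of the podosome ring and of focal adhesions. Its intensity was 12119, 10824 and 11022 on WT 1, 2 and 3 and 8012, 7792 and 7876 on KI 1, 2 and 3. Every KI array lay below every WT array, and limma gave a log2 difference of -0.52 (SE 0.05, adjusted p = 0.0039). All 3 probe sets of Pxn fell, by 0.52 to 0.73. Lpxn encodes leupaxin, a paxillin relative of blood cells. It read 6720, 7064 and 7156 on the WT arrays and 9100, 8910 and 8959 on the KI arrays. The groups were apart in the other direction, with a rise of 0.37 (SE 0.04, adjusted p = 0.0044).

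Ptk2b encodes PYK2, the focal adhesion kinase relative that acts in osteoclast podosomes downstream of integrins. Its intensity was 387, 454 and 449 in WT and 709, 729 and 776 in KI. All KI arrays were above all WT arrays, a 1.72-fold rise (log2 difference 0.78, SE 0.08, adjusted p = 0.0044). A second, dimmer probe set of Ptk2b did not pass (-0.07, adjusted p = 0.87 in limma's fit of every probe set), and with the mean of both the gene differed by 0.36 (adjusted p = 0.10). Fermt3 encodes kindlin-3, the integrin activator of blood cells, and rose by 0.13 (SE 0.04, adjusted p = 0.048), from a mean of 12459 ± 244 (SD, n = 3) in WT to 13610 ± 234 (SD, n = 3) in KI. No single array could be left out without ending that call: adjusted p was 0.075, 0.087 and 0.12 without WT 1, 2 and 3 and 0.11, 0.11 and 0.12 without KI 1, 2 and 3. It also ended with log2 of the intensity plus 32, without an intensity trend, without WT 1 and KI 1 and, by another probe set, without those ending in _x_at or _s_at (adjusted p = 0.077, 0.060, 0.083 and 0.095).

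Talin and vinculin, which carry the load from integrins to actin, showed no call. Tln1 averaged 3676 ± 165 (SD, n = 3) on WT arrays and 3637 ± 138 (SD, n = 3) on KI arrays, a log2 difference of -0.02 (SE 0.05, adjusted p = 0.87). Tln2, the talin isoform of muscle and brain, was near 67.8 in WT and 65.5 in KI, at percentile 35.8 of all genes by level, and was the only listed gene under the median of all genes. Vcl read 1518, 1034 and 1080 in WT and 1057, 950 and 1080 in KI. Apart from WT 1 its arrays lay within one narrow band, and the groups overlapped (log2 difference -0.22, SE 0.16, adjusted p = 0.39).

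The podosome scaffolds divided. Sh3pxd2b, which encodes TKS4, a Src substrate that organises podosomes, read 2410, 2434 and 2368 in WT and 3502, 3434 and 3417 in KI. The groups were far apart relative to their spread, and the gene rose by 0.52 (SE 0.04, adjusted p = 0.0019); its other probe set rose too, by 0.38. Sh3pxd2a, which encodes the related scaffold TKS5, differed by -0.02 (SE 0.11, adjusted p = 0.91). Pstpip1, a membrane-bending adaptor that binds WASP, fell by 0.44 (SE 0.11, adjusted p = 0.039), from 4860 ± 761 (SD, n = 3) to 3557 ± 66.7 (SD, n = 3). Its call ended without WT 2, KI 1, KI 2 or KI 3 (adjusted p = 0.070, 0.11, 0.091 and 0.11). Pstpip2, a relative that restrains osteoclast formation in mice, differed by 0.04 (SE 0.08, adjusted p = 0.80).

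Of 8 measured genes of branched nucleation, Cttn fell and 7 did not pass. Cttn encodes cortactin, a Src substrate that stabilises actin branches and marks podosomes and the sealing zone. Its intensity was 1889, 1174 and 1341 in WT and 516, 410 and 639 in KI. The lowest WT array was above the highest KI array, and the fall was 2.80-fold, with a log2 difference of -1.49 (SE 0.24, adjusted p = 0.011). Of 5 Cttn probe sets 3 fell in the fit of all probe sets; the dimmest (mean log2 4.03) gave -0.05, and with 1 mean per gene the fall was 0.90. The Arp2/3 complex subunits stayed within a narrow range. Arpc2, Arpc4 and Arpc5 differed by 0.10, 0.17 and 0.11 (adjusted p = 0.092, 0.050 and 0.091, none under the threshold), each with its KI arrays above its WT arrays, and the Arp2/3 subunit gene Actr3 by -0.01 (SE 0.03, adjusted p = 0.90). Arpc4 passed without WT 1 (0.13, adjusted p = 0.045), and its second probe set passed in limma's fit of every probe set (0.18, adjusted p = 0.049). Was, which encodes WASP, the activator of blood cells, averaged 3202 ± 372 (SD, n = 3) over WT arrays and 3919 ± 162 (SD, n = 3) over KI arrays without passing (0.30, SE 0.10, adjusted p = 0.074), although its groups were apart. The WASP relative Wasl (0.13, adjusted p = 0.22) and the WASP partner Wipf1 (0.15, adjusted p = 0.17) had overlapping groups.

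**Figure D2:**
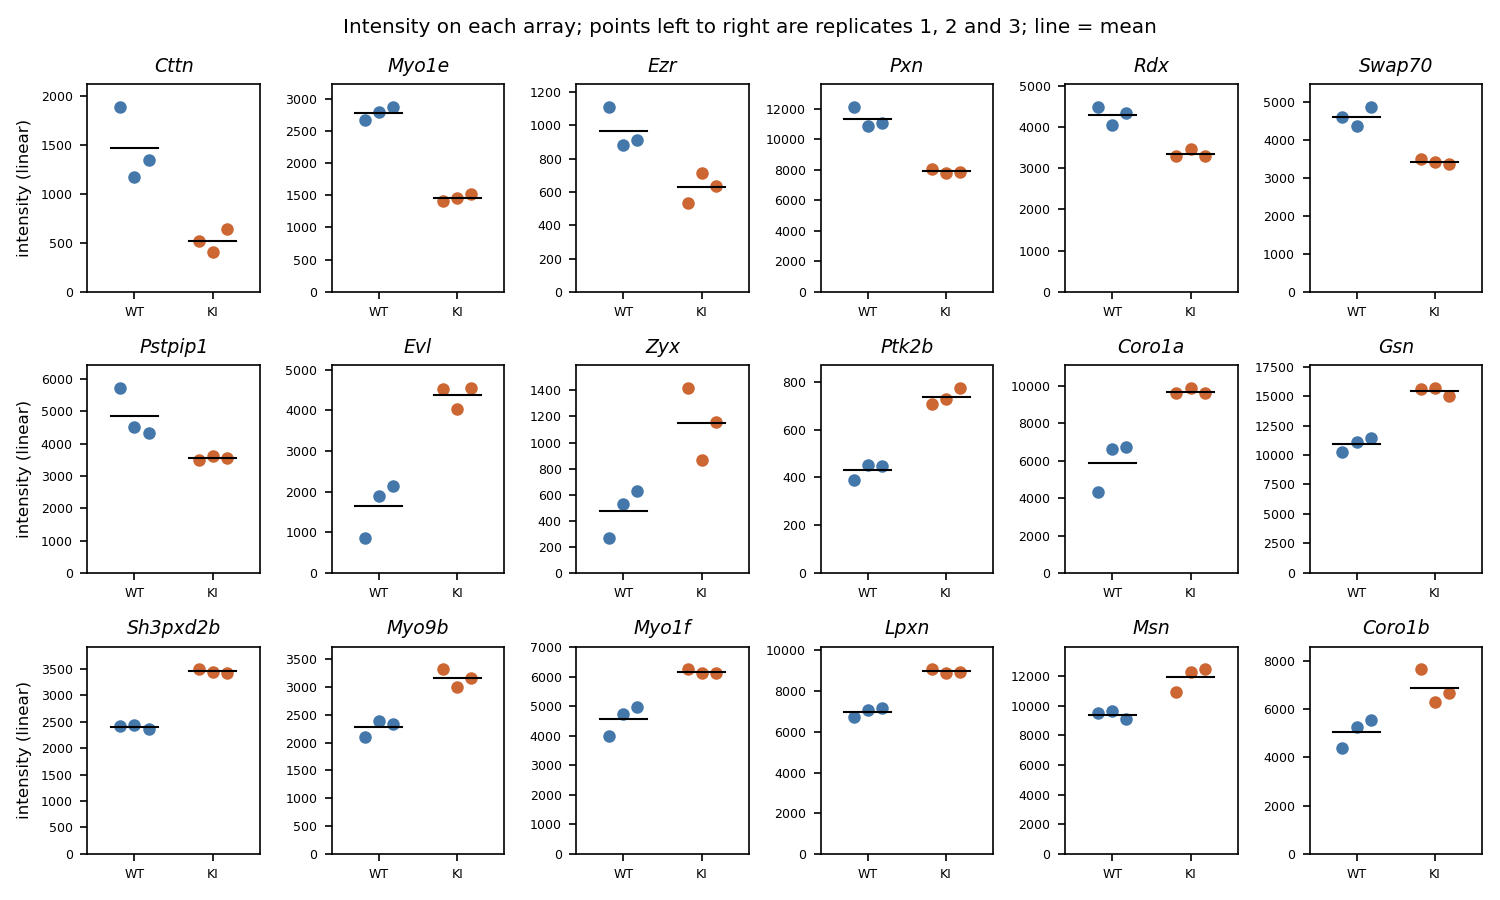
Intensity on a linear axis starting at 0, for WT and KI arrays, of 18 of the 19 called genes (Fermt3 is left out); points from left to right in a group are replicates 1, 2 and 3 and the line is the group mean. The 7 genes that fell come first, and for every gene shown the WT and KI points do not overlap. WT 1 is the lowest point for Evl, Zyx, Ptk2b, Coro1a, Gsn, Myo9b, Myo1f, Lpxn and Coro1b. It is the highest point for Cttn, Ezr, Pxn, Rdx and Pstpip1, and neither for Myo1e, Swap70, Sh3pxd2b and Msn.

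Evl and Zyx rose, whereas the other 2 genes of the Ena/VASP and zyxin group did not pass. Evl encodes a member of the Ena/VASP family, which lengthens filaments at their growing ends and is recruited by zyxin. Evl read 866, 1902 and 2134 in WT and 4512, 4041 and 4555 in KI. The KI arrays were above all WT arrays, WT 1 being the lowest, and the rise was 2.87-fold (log2 difference 1.52, SE 0.35, adjusted p = 0.029). All 4 Evl probe sets rose, by 1.13 to 1.52. The call ended without WT 2, KI 1, KI 2 or KI 3 (adjusted p = 0.054, 0.088, 0.072 and 0.093), and without WT 1 the rise was 1.11 (adjusted p = 0.0033). Zyx, which encodes the adhesion protein zyxin, read 270, 531 and 630 in WT and 1420, 864 and 1156 in KI. Its groups were apart but widely spread, with a log2 difference of 1.32 (SE 0.36, adjusted p = 0.047). The other, dimmer Zyx probe set differed by 0.51 (adjusted p = 0.041 in limma's fit of every probe set). The Zyx call ended without WT 2, WT 3, KI 1, KI 2 or KI 3 (adjusted p = 0.087, 0.051, 0.13, 0.069 and 0.13), without an intensity trend (0.051) and without both WT 1 and KI 1 (0.79, adjusted p = 0.061). Vasp differed by -0.10 (SE 0.05, adjusted p = 0.22).

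Enah, the third Ena/VASP gene, and Fscn1, which encodes the filament bundler fascin, varied more within each group than between them. Enah read 491, 220.99 and 143 in WT and 456, 185 and 516 in KI (log2 difference 0.50, SE 0.59, adjusted p = 0.60). Fscn1 read 760, 453 and 376 in WT and 887, 263 and 789 in KI (log2 difference 0.17, SE 0.54, adjusted p = 0.86). For both genes WT 1, KI 1 and KI 3 were the 3 highest arrays. The 8 stromal genes had their 3 highest sums on the same arrays: 11189, 6862 and 3377 on WT 1, 2 and 3 and 13258, 3802 and 11903 on KI 1, 2 and 3. Col1a1 alone, a collagen chain of fibroblasts and osteoblasts, read 924, 622 and 264 in WT and 1202, 299 and 1124 in KI, and 0 of the 8 stromal genes passed (limma; none had groups apart). The part of stromal cells in the values of Enah and Fscn1 was not tested.

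**Figure D3:**
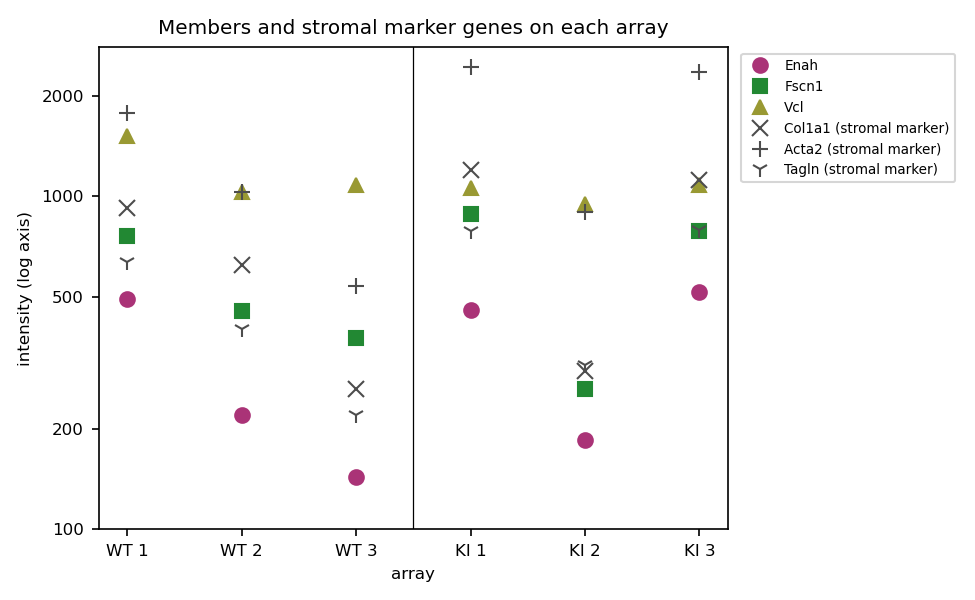
Intensity on a log axis of Enah, Fscn1 and Vcl (coloured) and of the stromal marker genes Col1a1, Acta2 and Tagln (grey symbols) on each of the 6 arrays. Enah, Fscn1 and the 3 markers are highest on WT 1, KI 1 and KI 3 and lower on WT 2, WT 3 and KI 2, while Vcl stays between 950 and 1080 on every array but WT 1 (1518).

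Genes of actin and of filament turnover gave 3 rises, no falls and 6 genes that did not pass. Actb, which encodes beta-actin and was the brightest gene of the list, averaged 33220 ± 153 (SD, n = 3) over WT arrays and 33734 ± 960 (SD, n = 3) over KI arrays (log2 difference 0.02, SE 0.03, adjusted p = 0.71). Profilin (Pfn1, 0.03), cofilin (Cfl1, 0.08), the muscle-type cofilin Cfl2 (-0.18) and the capping protein Capg (0.00) did not pass either, with adjusted p from 0.20 to 0.98. Coronins take Arp2/3 complexes off branches and help cofilin to take filaments apart; Coro1a and Coro1b rose and Coro1c did not pass. Coro1a, the coronin of leukocytes, read 4304, 6623 and 6715 in WT and 9599, 9905 and 9601 in KI. KI arrays were alike and above all WT arrays, of which WT 1 was the lowest, and the rise was 1.68-fold (log2 difference 0.75, SE 0.18, adjusted p = 0.033). All 3 Coro1a probe sets rose, and without WT 1 the rise was 0.54 (adjusted p = 0.0027). The call ended without WT 2, KI 1, KI 2 or KI 3 (adjusted p = 0.052, 0.091, 0.089 and 0.097). Coro1b rose by 0.44 (SE 0.12, adjusted p = 0.043), and leaving out any of the WT arrays 1, 2 and 3 or the KI arrays 1, 2 and 3 ended that call (adjusted p from 0.056 to 0.11). Coro1c differed by 0.25 (SE 0.07, adjusted p = 0.055) with groups apart, and passed without WT 1 (0.32, adjusted p = 0.014). Its 3 dimmer probe sets did not pass (-0.08, -0.08 and 0.0057), and without probe sets ending in _x_at or _s_at the gene differed by -0.08 (adjusted p = 0.70). Gsn encodes gelsolin, which severs and caps filaments and is abundant in osteoclast podosomes. It rose by 0.50 (SE 0.05, adjusted p = 0.0043), from 10930 ± 624 (SD, n = 3) to 15445 ± 368 (SD, n = 3), and 5 of its 6 probe sets rose.

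The 8 crosslinkers and bundlers held 1 called gene. Swap70, a filament-binding protein that signals through Rac, fell by 0.43 (SE 0.05, adjusted p = 0.0060), from 4613 ± 259 (SD, n = 3) to 3430 ± 68.4 (SD, n = 3), and both of its probe sets fell. The alpha-actinin gene Actn1 (-0.29, adjusted p = 0.055) and the plastin gene Lcp1 (0.35, adjusted p = 0.069) did not pass, although the groups of each were apart. Lcp1 passed without WT 1 (0.23, adjusted p = 0.034), and Actn1 without WT 1 and KI 1 (-0.16, adjusted p = 0.030). The second probe set of Lcp1 passed in limma's fit of every probe set (0.41, adjusted p = 0.044). Actn4 (-0.04), the filamin gene Flna (-0.08), Lsp1 (0.19) and Lasp1 (-0.18) had overlapping groups and adjusted p from 0.23 to 0.80. Of 9 Lasp1 probe sets 1 fell, by 0.53 (adjusted p = 0.036 in limma's fit of every probe set), and the gene passed without KI 1 by that probe set, then the brightest (-0.42, adjusted p = 0.043).

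All 3 genes of the linkers between filaments and membrane were called, Ezr and Rdx lower and Msn higher (Msn at -0.19 with arrays shifted to older spike-in probe sets). Ezr, which encodes ezrin, read 1113, 885 and 910 in WT and 534, 715 and 636 in KI. No KI array reached the lowest WT array, and the gene fell 1.54-fold (log2 difference -0.63, SE 0.14, adjusted p = 0.028). Its other probe set (mean log2 9.12) gave -0.05 (adjusted p = 0.83), and with 1 mean per gene the call ended (-0.34, adjusted p = 0.085). The call also ended without WT 1, WT 2, WT 3, KI 1 or KI 3 (adjusted p = 0.055, 0.054, 0.060, 0.067 and 0.085), and without both WT 1 and KI 1 the difference was -0.41 (adjusted p = 0.035). Rdx, which encodes radixin, fell by 0.36 (SE 0.06, adjusted p = 0.0099), reading 4492, 4038 and 4328 in WT and 3290, 3466 and 3288 in KI. In limma's fit of every probe set the other Rdx probe sets did not pass. They gave -0.19 (mean log2 11.83, adjusted p = 0.26) and -0.63 (mean log2 9.49, adjusted p = 0.099). Rdx lost its call without KI 3 (adjusted p = 0.051) and, by another probe set, without WT 1 and KI 1 (-0.13, adjusted p = 0.32). Msn, which encodes moesin, the main linker of leukocytes, read 9490, 9643 and 9081 in WT and 10947, 12274 and 12499 in KI. Its KI arrays were all above WT, a rise of 0.34 (SE 0.06, adjusted p = 0.016) that ended without WT 3, KI 2 or KI 3 (adjusted p = 0.051, 0.055 and 0.064).

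Of the 4 myosin genes Myo1e fell, Myo1f and Myo9b rose and Myh9 did not pass. Myo1e encodes a long-tailed class I myosin that binds membranes and localises to podosomes; its promoter window above holds a CArG box. Its intensity was 2674, 2789 and 2873 in WT and 1412, 1455 and 1521 in KI. The groups were tight and far apart, a 1.90-fold fall (log2 difference -0.93, SE 0.05, adjusted p = 0.0011), and 3 of 4 probe sets fell. Myo1f, the other long-tailed class I myosin, which is found in leukocytes, read 3989, 4724 and 4966 in WT and 6267, 6117 and 6110 in KI. It rose by 0.44 (SE 0.09, adjusted p = 0.019) with all 3 probe sets, a call that ended without KI 1, KI 2 or KI 3 (adjusted p = 0.065, 0.058 and 0.070). Myo9b, an unconventional myosin, rose by 0.47 (SE 0.07, adjusted p = 0.0087), from 2278 ± 152 (SD, n = 3) to 3163 ± 166 (SD, n = 3), by 1 of its 3 probe sets, and by 0.25 with 1 mean per gene (adjusted p = 0.047). Myh9, the heavy chain of non-muscle myosin II, differed by 0.02 (SE 0.04, adjusted p = 0.71). When all probe sets were fitted at once, a test over more features, the probe sets used here for Zyx, Fermt3, Pstpip1 and Coro1b did not pass (adjusted p = 0.069, 0.052, 0.055 and 0.062, limma).

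**Figure D4:**
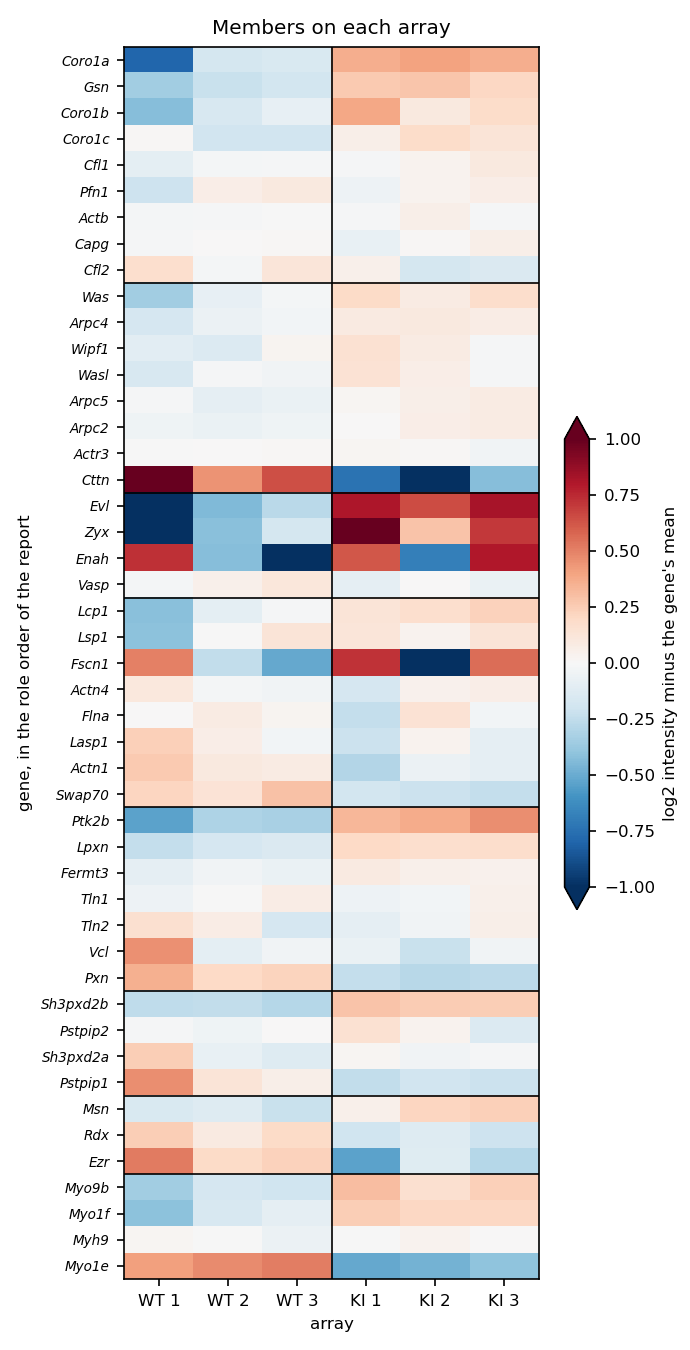
Log2 intensity of the 47 genes on each array, minus the gene's own mean over the 6 arrays, in the role order used above with lines between roles (red above the mean, blue below it, colours ending at 1 and -1). Rows that change between the WT and KI columns stand beside pale rows such as Actb, Actr3 and Myh9, and Enah and Fscn1 change within the groups.

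In the deposited values Lpxn, Msn and Myo1f rose while Pxn, Ezr, Rdx and Myo1e fell, although Lpxn, Msn and Myo1f lay below 0 with arrays shifted to older spike-in probe sets. In the pairs of Evl with Vasp, Sh3pxd2b with Sh3pxd2a and Coro1a with Coro1c only the first gene passed. The ratio of 2 relatives can be read within each array, where the scaling of the array cancels. The pairs were picked after their values were seen and are given without a test. The log2 ratio of Lpxn to Pxn was -0.85, -0.62 and -0.62 on the WT arrays and 0.18, 0.19 and 0.19 on the KI arrays. That of Myo1f to Myo1e was 0.58, 0.76 and 0.79 against 2.15, 2.07 and 2.01. Neither pair of groups overlapped, and the mean ratios moved by 0.88 and 1.37. The genes of each pair had groups apart in opposite directions, so these ratios had to separate and add no support. The ratio of Msn to Ezr moved by 0.97, that of Msn to Rdx by 0.69, that of Evl to Vasp by 1.62, that of Sh3pxd2b to Sh3pxd2a by 0.55 and that of Coro1a to Coro1c by 0.50. These ratios compare probe sets of different genes, so their level has no meaning, and the change of a ratio does not say which gene of the pair moved.

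Which genes were called higher depended on how arrays were scaled. Shifting each array to its hybridisation spike-ins (spike-in scaling) moved the median difference of all genes to -0.21 and that of the actin genes to -0.12, with 7 of them higher and 10 lower, beside 7.35% and 28.5% of all genes. Shifting to an older series of probe sets that detect these spike-ins (older spike-in scaling) moved the medians to -0.53 and -0.45, with 2 higher (Evl and Zyx) and 17 lower, beside 2.33% and 47.2%. Each shift lowered the difference of every gene by the same amount, so falls could only grow and rises only shrink. All 7 genes called lower as deposited, Cttn, Myo1e, Ezr, Pxn, Pstpip1, Swap70 and Rdx, stayed called lower under both. This contrast between falls and rises is therefore no evidence that the falls are steadier. Of the rises, those of Fermt3, Coro1b, Myo1f, Msn and Lpxn ended under spike-in scaling, where Fermt3 turned to -0.08. Under older spike-in scaling Ptk2b (0.25, adjusted p = 0.40) and Coro1a (0.22, adjusted p = 0.42) lost their calls, and Gsn, Sh3pxd2b, Myo9b, Coro1b, Myo1f, Lpxn, Msn and Fermt3 turned to between -0.40 and -0.01. Directions in this text are those of the deposited values. Of the 19 calls, 9 held when any single array was left out (Cttn, Myo1e, Pxn, Swap70, Ptk2b, Sh3pxd2b, Gsn, Myo9b and Lpxn). A running number appears in each sample description, with no stated meaning; with it as a covariate 7 held (Pxn, Myo1e, Ptk2b, Gsn, Sh3pxd2b, Myo9b and Lpxn) and 12 ended, with adjusted p from 0.052 to 0.17.

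**Figure D5:**
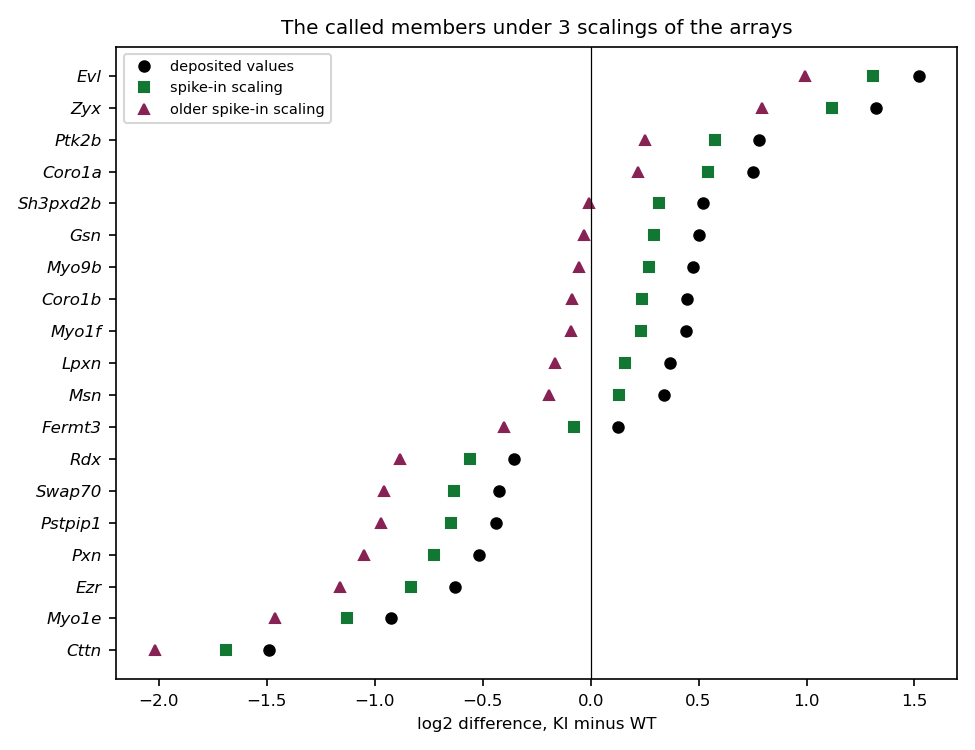
Log2 difference between KI and WT of the 19 called genes with the deposited values (circles), after spike-in scaling (squares) and after older spike-in scaling (triangles). Each scaling lowers all genes by the same amount, so the 7 falls move further from 0 under both. Of the 12 rises only Evl, Zyx, Ptk2b and Coro1a stay above 0 under all 3, ending at 0.99, 0.79, 0.25 and 0.22.

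Other genes of the same pathways were taken from 3 lists by function, whose counts stand beside the 11.9% of all genes called higher and 14.9% called lower. Of 46 other filament proteins 18 rose, 4 fell and 24 did not pass, with a median of 0.15. Scin, which encodes scinderin, a gelsolin relative, fell by 2.41 (SE 0.45, adjusted p = 0.017), reading 1958, 672 and 699 in WT and 146, 219 and 192 in KI. All KI arrays were below all WT arrays, opposite to Gsn, and the call ended without KI 1 or KI 3 (adjusted p = 0.060 and 0.062). Plek, which encodes the leukocyte protein pleckstrin, rose by 1.63 and Marcksl1, which binds actin at the membrane, by 1.51. Hcls1, a cortactin relative of blood cells, rose by 0.23 with the deposited values (SE 0.05, adjusted p = 0.027, limma), opposite to Cttn. Its mean intensity was 3336 in WT and 3905 in KI.

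Of 21 genes of the formins, which start unbranched filaments, the WAVE complex, which starts those of lamellipodia, and 4 adaptor and scaffold genes (Iqgap1, Nck1, Nck2 and Baiap2), 6 rose and 4 fell (median 0.09). Iqgap1 and Nck2 were among the rises and Baiap2 among the falls. The formin genes Diaph2 and Inf2 rose by 1.36 and fell by 0.77, and Nckap1, a WAVE subunit, fell by 0.99. The call for Nckap1 ended when any of WT 1, 2 and 3 or KI 1, 2 and 3 was left out (adjusted p from 0.063 to 0.11) and that for Inf2 without KI 1 or KI 3 (0.051 and 0.067). Of 28 other focal adhesion adaptors 8 rose, 2 fell and 18 did not pass (median 0.13). The vinexin gene Sorbs3 rose by 1.30, the tensin gene Tns1 by 1.19 and Fyb, an adaptor that links to Ena/VASP proteins in leukocytes, by 0.74. Those calls ended without WT 2, KI 1 or KI 3 for Sorbs3 (adjusted p = 0.061, 0.078 and 0.089), without WT 1, WT 2, KI 1 or KI 3 for Tns1 (0.059, 0.065, 0.053 and 0.080) and without WT 2, KI 1, KI 2 or KI 3 for Fyb (0.059, 0.093, 0.077 and 0.093). Without both WT 1 and KI 1 the calls for Nckap1, Sorbs3 and Tns1 ended (adjusted p = 0.12, 0.054 and 0.051), and the rise of Fyb did so with older spike-in scaling (0.21, adjusted p = 0.46). With the description number as a covariate Diaph2 and Plek kept their calls (adjusted p = 0.035 and 0.040) and the other 7 genes named from these lists did not. Spike-in scaling gave 1 rise and 5 falls in the list of formins, WAVE complex and adaptors, 6 and 7 among focal adhesion adaptors and 8 and 6 among filament proteins. Older spike-in scaling gave 1 and 6, 2 and 7 and 2 and 9.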

How the data were processed

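Gene expression was measured in 3 WT and 3 KI samples with 1 array each. The deposited table holds linear intensities, 1 per probe set and array, which the authors made with Affymetrix Expression Console per the submitters' processing notes. How probes were summarised and normalized is not given in the sources used here; since array medians lay between 83.0 and 84.8, the intensities were used as already normalized. Of 45101 probe sets, 64 were controls, 34945 had 1 gene symbol, 932 several and 9160 none. Intensities were floored at 16 (5.47% of values lay below) and log2 transformed. Each of 18193 genes was taken by its brightest probe set, with no filter on low values, and KI was compared with WT by limma 3.58.1 in R 4.3.3 (lmFit, eBayes with an intensity trend), adjusted by Benjamini-Hochberg over all genes at 0.05. The fold given is 2 to the power of the log2 difference. SDs are those of the deposited intensities, and the number of arrays limits the precision. A fit of all 45037 non-control probe sets gave the values of other probe sets. The limma comparison and its adjustment were tested on simulated data with 1 value per gene. Flooring, the choice of probe set, scaling and the motif search were not part of that test.

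The genes and lists were chosen with earlier results of these data known. Per-array values were to be given for called genes with a log2 difference of at least 0.58; those of other genes were added after their values were seen. Of each list of related genes the 3 called genes with the largest difference were named; 1 further list is not reported here. Alternatives were quantile normalization, 2 scalings to spike-ins, a filter on dim genes, log2 of the intensity plus 32, no intensity trend, replicate number as a block, the running number of the descriptions as a covariate, 1 mean per gene, no probe sets ending in _x_at or _s_at, and leaving out arrays. Where scaling, arrays or probe sets differed, the brightest probe set was chosen again. Promoter sequences are those of RefSeq.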

Additional observations from a re-analysis of the deposited data

How the results depend on the processing

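With 3 arrays a group, calls near the threshold moved with single arrays: leaving out each array in turn left 5 to 13 genes of the actin list higher and 4 to 6 lower (4.88% to 11.0% and 6.13% to 13.1% of all genes), and 2 to 8 calls in the list of formins, WAVE complex and adaptors, 3 to 10 among focal adhesion adaptors and 10 to 19 among other filament proteins. With the replicate number as a block 0 actin genes were higher and 1 lower (0.803% and 1.09% of all genes), and 1, 0 and 4 genes were called in the lists of formins, WAVE complex and adaptors, of focal adhesion adaptors and of filament proteins. In that limma fit 13 actin genes were higher, and 11 focal adhesion adaptors differed, at an unadjusted p under 0.05. The share of all genes at that unadjusted level was not counted, so these counts cannot be set against a background. Deviations from the group mean correlated by -0.54, -0.44 and -0.38 between samples of the same number, across the genes above the median level. Between WT and KI samples of different numbers the correlations ran from -0.39 to 0.52. Deviations from a mean of 3 arrays depend on each other, so these correlations cannot decide whether the numbers pair samples. With the running number of the descriptions as a covariate 5 actin genes were higher and 2 lower (3.89% and 5.30% of all genes), and 2, 3 and 8 genes were called in those lists. Spike-in scaling left 7 actin genes higher, with 6 calls in the list of formins, WAVE complex and adaptors and 14 among filament proteins; older spike-in scaling left 2 higher and 17 lower, with 11 calls among filament proteins. The filter, quantile normalization, log2 of the intensity plus 32, no trend, 1 mean per gene, no probe sets ending in _x_at or _s_at and leaving out WT 1 and KI 1 left both counts of actin genes within 1.5 times. With the filter on dim genes 17 actin genes were higher and 8 lower (23.5% and 31.5% of the 9096 genes kept). Of the 28 genes not called, 23 turned sign and 16 passed in at least 1 alternative. No cause was tested.

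Log2 differences that turned sign under older spike-in scaling were Gsn -0.030, Was -0.23, Wasl -0.40, Wipf1 -0.38, Enah -0.035, Fermt3 -0.40, Sh3pxd2b -0.0084, Pstpip2 -0.49, Arpc2 -0.43, Arpc4 -0.36, Arpc5 -0.42, Cfl1 -0.45, Pfn1 -0.50, Coro1b -0.086, Coro1c -0.28, Lcp1 -0.18, Lsp1 -0.34, Fscn1 -0.36, Myo1f -0.089, Myo9b -0.056, Myh9 -0.51, Msn -0.19, Lpxn -0.17 and Actb -0.51 (adjusted p = 0.048 for Actb, by limma). Under spike-in scaling they were Wasl -0.072, Wipf1 -0.058, Fermt3 -0.079, Pstpip2 -0.17, Arpc2 -0.11, Arpc4 -0.034, Arpc5 -0.096, Cfl1 -0.12, Pfn1 -0.18, Lsp1 -0.016, Fscn1 -0.037, Myh9 -0.18 and Actb -0.18. Without WT 1 and KI 1 they were Tln2 0.055, Actn4 0.081, Sh3pxd2a 0.078, Pstpip2 -0.031, Pfn1 -0.031, Capg 0.028 and Flna 0.00064. Quantile normalization gave Actn4 0.0031, Sh3pxd2a 0.035, Actr3 0.024 and Capg 0.017, the covariate Sh3pxd2a 0.034, Actr3 0.012 and Pfn1 -0.057, the mean per gene Pstpip2 -0.021, Actr3 0.0032 and Capg 0.0049, and the fit without _x_at and _s_at probe sets Coro1c -0.084. With 1 array left out the range crossed 0 for Tln1 (-0.046 to 0.019), Tln2 (-0.14 to 0.022), Actn4 (-0.078 to 0.038), Sh3pxd2a (-0.095 to 0.093), Pstpip2 (-0.033 to 0.11), Actr3 (-0.018 to 0.0090), Pfn1 (-0.065 to 0.086), Fscn1 (-0.15 to 0.73), Capg (-0.035 to 0.034), Flna (-0.17 to 0.017) and Actb (-0.0017 to 0.034).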
